A study of Mus musculus with 21 samples.

Results

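Reporter-positive (AGF+) and reporter-negative (AGF−) lymph node cells were compared in mice that carry the AGF-KI reporter allele of Aire, the autoimmune regulator, over a null allele (AGF-KI/-, labelled AireKO). The comparison takes 6 of the 21 libraries of the study by their titles alone, 3 of AGF+ and 3 of AGF− cells, and covers the 15884 expressed genes of 55471 in the table. All mice were C57BL/6, labelled male and 6 weeks old. One gate, CD45+CD11c+MHCII+, took the cells of both sorts, which the reporter then separated. The 6 lymph node libraries of AGF-KI/+ mice (KI/+), again 3 of AGF+ and 3 of AGF− cells, shared the fit, and they carry the same knock-in allele. The labels name 3 independent biological replicates per genotype. The sources used here do not say which part of Aire the null allele lacks, or how many mice gave 1 library.

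Aire is a nuclear protein best known from medullary thymic epithelial cells, where it promotes the transcription of many genes that are otherwise confined to peripheral tissues and so helps to remove self-reactive T cells. Aire is also found in rare antigen-presenting cells of lymph nodes, which have been described as resembling mature dendritic cells (DCs). Conventional DCs comprise cDC1, specialised in cross-presentation to CD8 T cells, and cDC2, which mainly activate CD4 T cells. Maturing DCs switch on the chemokine receptor CCR7 and costimulatory molecules.

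Totals were 4716284 to 5559188 counts in the 6 AireKO libraries, so that 3 counts, the limit that a count of 0 allows, correspond to 0.534 to 0.641 CPM (counts scaled to a common effective library size). Floors and counting intervals cover counting error only. The libraries numbered 2 stood apart. In these 4 of the 12 lymph node libraries, 1 per group, Xist was at 3411 to 4207 CPM and Y-linked genes together at 0 to 0.644 CPM. The other 8 had 0.398 to 33.2 CPM of Xist, with 397 to 529 CPM from Y-linked genes, although the labels give males throughout. AGF+ replicates lay closer together than AGF− replicates, with a median coefficient of variation over 6398 well-expressed genes of 7.90% in AGF+ and 14.7% in AGF− libraries. Mitochondrially encoded genes made up 1.53 ± 0.0724% of counts in AGF+ and 1.86 ± 0.288% of counts in AGF− libraries (SD, n = 3 each, two-sided exact permutation p = 0.1), and 0.1 is the smallest p that 3 against 3 libraries allow. Genes detected at equal depth numbered 23006 ± 112 in AGF+ and 23184 ± 377 in AGF− libraries (SD, n = 3 each, two-sided exact permutation p = 0.7).

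AGF+ cells of AireKO mice differed from AGF− cells in 3926 genes, 24.7% of those tested (edgeR quasi-likelihood F test, Benjamini-Hochberg adjusted p under 0.05). Of these, 1812 (11.4%) were higher and 2114 (13.3%) were lower in AGF+ cells. The counts of each gene list below stand against these shares of all tested genes. At least 2-fold changes were found in 994 (6.26%) of the higher and 1177 (7.41%) of the lower genes, as shares of all tested genes. Replicates of AGF+ and AGF− cells were fully separated in 39.8% of genes, and the median log2 fold change over all tested genes was 0.00667. Log2 fold changes are AGF+ over AGF− and are given ± SE from 3 libraries against 3. Levels are CPM in replicates 1, 2 and 3 of each sort. In bulk libraries, fewer cells of a type and less RNA per cell cannot be told apart.

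Aire transcripts were counted in AireKO cells of both sorts, with more of them in AGF+ cells. Aire was at 24.2, 27.9 and 27.4 CPM in AGF+ and at 11.1, 15.003 and 13.8 CPM in AGF− cells. The sorts did not overlap, and Aire rose in AGF+ cells (log2 fold change 0.99 ± 0.16, adjusted p = 4.2e-04). In KI/+ mice its change was 2.99 ± 0.16, with means of 121 ± 17.6 CPM in AGF+ and 15.3 ± 0.440 CPM in AGF− cells (SD, n = 3 each). The change in AireKO minus that in KI/+ mice was -1.998 ± 0.22 (95% interval -2.47 to -1.53, adjusted p = 0.0045). Without the libraries numbered 2 it was -2.02, with an unadjusted p = 4.2e-05 and an adjusted p = 0.67.

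Genes beside Aire on chromosome 10 moved in both directions. Dnmt3l, a cofactor of DNA methyltransferases that starts within the 5′ region of Aire on the opposite strand, was at 62.3, 54.6 and 73.5 CPM in AGF+ and at 10.9, 17.4 and 14.4 CPM in AGF− cells (2.15 ± 0.23, adjusted p = 1.5e-05). Every AGF+ library was above every AGF− library. In KI/+ mice its change was 4.58 ± 0.44, at means of 9.57 ± 0.807 CPM in AGF+ and 0.383 ± 0.348 CPM in AGF− cells (SD, n = 3 each). That AGF− mean lies below the level of 3 counts in its libraries, 0.646 to 0.705 CPM, so the KI/+ change rests on few counts. The difference of the Dnmt3l change from AireKO did not pass (-2.42 ± 0.55, unadjusted p = 6.4e-04, adjusted p = 0.999988). The exons of Aire and Dnmt3l share 67 bases, and without a stated strand setting reads there cannot be told apart. Icosl, the ligand of the costimulatory receptor ICOS, lies at chr10:78069302-78083913 (GRCm38, plus strand). It was at 899, 908 and 931 CPM in AGF+ and at 266, 398 and 199 CPM in AGF− cells (1.66 ± 0.23, adjusted p = 1.3e-04), and its change in KI/+ cells was 1.57 ± 0.22. Of the 12 genes around Aire that were measured, which here and below means past the filter on low counts, these 3 rose and 4 fell: Trpm2 (-1.31 ± 0.28), Lrrc3 (-2.17 ± 0.65), Agpat3 (-0.60 ± 0.20) and Cstb (-0.93 ± 0.26). Without the libraries numbered 2, 0 fell, and 1 without AGF+ replicate 2. Trpm2 lost its call without the libraries numbered 2 (adjusted p = 0.062). Lrrc3 did not pass without the libraries numbered 2, AGF+ replicate 2, AGF+ replicate 3 or AGF− replicate 1 (adjusted p of 0.091 to 0.16), and its log2 fold change was -3.40 without AGF+ replicate 1 and -1.52 without AGF− replicate 1. Agpat3 was no longer called without the libraries numbered 2, AGF+ replicate 1, AGF+ replicate 2, AGF+ replicate 3, AGF− replicate 1, KI/+ AGF+ replicate 2 or KI/+ AGF− replicate 3, with limma voom, scaled by library size alone, in a fit of the 6 AireKO libraries or in a fit of all 21 libraries (adjusted p of 0.0543 to 0.19). Cstb fell short of the threshold without the libraries numbered 2, AGF+ replicate 1, AGF+ replicate 2 or AGF− replicate 3 or in a fit of the 6 AireKO libraries (adjusted p of 0.062 to 0.16).

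**Figure D1:**
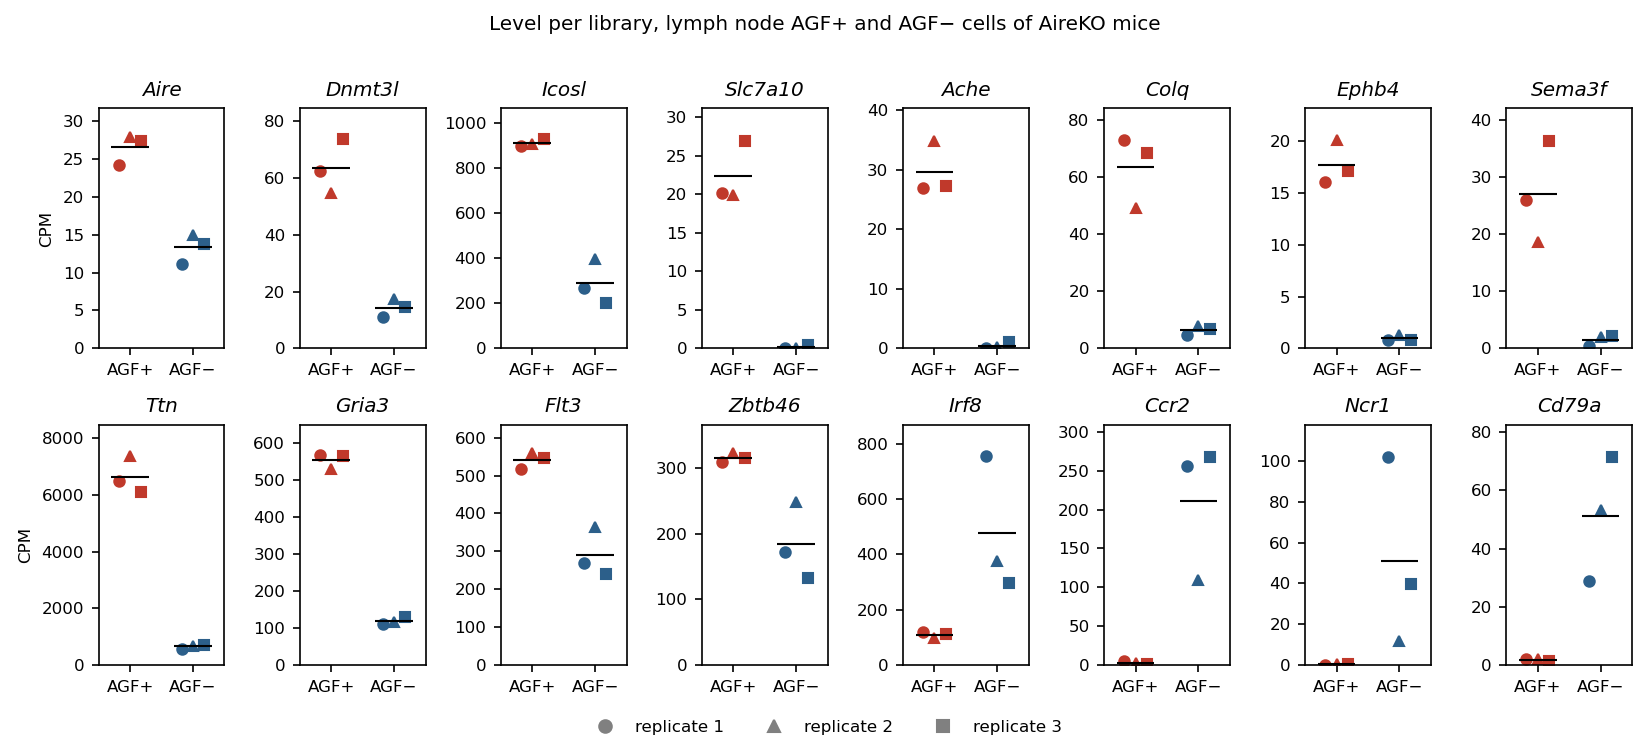
Level (CPM, linear axes from 0) of 16 genes in each AireKO lymph node library, AGF+ left and AGF− right, with a symbol for each replicate number and a line at the mean of 3 libraries. The first 12 genes, Aire to Zbtb46, were higher in every AGF+ library than in any AGF− library, and Irf8, Ccr2, Ncr1 and Cd79a were lower. Icosl, Slc7a10, Ache, Ephb4, Sema3f, Ttn, Gria3, Ccr2 and Ncr1 came from rankings that required this separation.

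The largest relative rises were in genes at low levels in AGF− cells. Slc7a10, a transporter of small neutral amino acids, was at 20.1, 19.9 and 26.9 CPM in AGF+ and at 0, 0 and 0.405 CPM in AGF− cells (171-fold, 95% counting interval 47.0 to 1418, adjusted p = 3.9e-07). Only 2 counts of it were found in the 3 AGF− libraries. Ache, acetylcholinesterase, was at 26.9, 34.9 and 27.4 CPM in AGF+ and at 0, 0.183 and 1.01 CPM in AGF− cells (6.16 ± 0.50, adjusted p = 1.9e-06). Colq, the collagen-like tail that anchors acetylcholinesterase at synapses, was at 72.9, 49.3 and 68.2 CPM in AGF+ and at 4.77, 7.68 and 6.89 CPM in AGF− cells (3.29 ± 0.21, adjusted p = 3.9e-07). The sorts did not overlap for any of the 3, which for Slc7a10 and Ache was a condition of the ranking. Also among the largest rises were Ephb4, a receptor of ephrin-B2 (4.16 ± 0.31, adjusted p = 1.0e-06), Sema3f, a secreted semaphorin (4.10 ± 0.47, adjusted p = 3.0e-05), and Ntn5, which encodes a netrin-like protein (4.90 ± 0.57, adjusted p = 3.2e-05). Tcte1, of the dynein regulatory complex of cilia, was at 72.3, 67.0 and 63.0 CPM in AGF+ and at 2.19, 3.66 and 5.67 CPM in AGF− cells (4.13 ± 0.25, adjusted p = 3.7e-07). Rimkla, a synthetase of N-acetylaspartylglutamate (4.54 ± 0.46), Mdk, a heparin-binding growth factor (4.09 ± 0.46), and Pappa2, a protease of insulin-like growth factor binding proteins (3.85 ± 0.40), completed this group. Part of the exon bases of Slc7a10 (17.9%), Ntn5 (23.4%) and Tcte1 (23.7%) lies over a gene on the other strand, so their counts are uncertain to that extent. Ache had a log2 fold change of 7.95 without AGF− replicate 3 and 6.87 with limma voom. Ntn5 had a log2 fold change of 7.000 without the libraries numbered 2 and 6.83 without AGF− replicate 2. Pappa2 had a log2 fold change of 4.59 without AGF− replicate 3.

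Axon guidance and synaptic genes held several of these rises. This list, like the others, was chosen with earlier results of these data known. Of 40 listed members 30 were measured. Of those 14 rose and 3 fell, with a median log2 fold change of 0.83. Without the libraries numbered 2, 14 rose and 3 fell. The summed levels of the list overlapped. They were 3926, 3779 and 4252 CPM in AGF+ and 3106, 3834 and 3018 CPM in AGF− libraries. Besides Ache, Colq, Ephb4, Sema3f and Ntn5, the neural adhesion molecule Ncam1 was at 3.21, 7.40 and 4.49 CPM in AGF+ and at 0.199, 0.183 and 1.01 CPM in AGF− cells (3.39 ± 0.57, adjusted p = 6.7e-04). Syt1, a calcium sensor of vesicle release (2.53 ± 0.47), and the synaptic adhesion genes Nrxn2 (1.94 ± 0.51) and Nlgn2 (1.35 ± 0.26) rose. The semaphorins split: Sema6d (1.25 ± 0.26), Sema4c (1.17 ± 0.19) and Sema7a (0.86 ± 0.21) rose, and Sema4b (-1.57 ± 0.22) and Sema4d fell. Sema4d, a semaphorin of lymphocytes, was at 104, 82.5 and 72.7 CPM in AGF+ and at 364, 223 and 243 CPM in AGF− cells (-1.67 ± 0.18, adjusted p = 1.6e-05). The third member that fell was Epha2, an ephrin-A receptor (-4.22 ± 0.81). In KI/+ mice 14 members were higher and 3 lower in AGF+ cells. Ncam1 had a log2 fold change of 2.62 without the libraries numbered 2 and 4.54 without AGF− replicate 3. Nrxn2 did not pass without AGF+ replicate 3 (adjusted p = 0.065). Epha2 had a log2 fold change of -3.23 without AGF− replicate 1 and -3.57 with limma voom.

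By the difference in CPM, a ranking that favours abundant and long transcripts, Ttn came first. Ttn encodes titin, the giant spring protein of the muscle sarcomere, and has 116825 exon bases. It was at 6484, 7356 and 6094 CPM in AGF+ and at 575, 659 and 719 CPM in AGF− cells (3.35 ± 0.22, adjusted p = 3.9e-07), and its change in KI/+ cells was 3.21 ± 0.22. Gria3, an AMPA-type glutamate receptor subunit, was at 566, 529 and 564 CPM in AGF+ and at 111, 115 and 128 CPM in AGF− cells (2.22 ± 0.11, adjusted p = 5.9e-08). In both genes the replicates of a sort lay close together. Other genes in this ranking were Sspo, which encodes the secreted SCO-spondin (1.74 ± 0.22), Slc4a8, a bicarbonate transporter (1.54 ± 0.24), Ttyh3 (1.18 ± 0.22), Tnrc18 (1.13 ± 0.18), Atp11a, a phospholipid flippase (1.12 ± 0.21), Chka, choline kinase (1.103 ± 0.16), and Adam11, a member of the ADAM family without protease activity (1.33 ± 0.37). Adam11 lost its call without the libraries numbered 2, AGF+ replicate 1 or AGF+ replicate 2 (adjusted p of 0.0540 to 0.089).

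Among genes changed 2-fold or more, Lyz2 and Ptprc had large drops in CPM. Lyz2, lysozyme of macrophages and neutrophils, was at 273, 215 and 160 CPM in AGF+ and at 1287, 1263 and 1943 CPM in AGF− cells (-2.79 ± 0.23, adjusted p = 2.5e-06), and its reads can be shared with the near copy Lyz1. Ptprc, which encodes the gating protein CD45, was at 937, 946 and 977 CPM in AGF+ and at 2063, 1677 and 2243 CPM in AGF− cells (-1.06 ± 0.14, adjusted p = 8.6e-05). Csf1r, the receptor of macrophage colony-stimulating factor, was at 210, 125 and 75.7 CPM in AGF+ and at 812, 498 and 445 CPM in AGF− cells (-2.09 ± 0.31, adjusted p = 2.3e-04), with 15.1% of its exon bases over another gene. Ly6e, a GPI-anchored surface protein, was at 78.6, 83.9 and 73.5 CPM in AGF+ and at 540, 402 and 601 CPM in AGF− cells (-2.71 ± 0.17, adjusted p = 3.9e-07). The ranking admitted only genes whose sorts did not overlap, so the separation of these 4 was a condition and not a result. Lrp1, an endocytic receptor (-2.35 ± 0.30), Ahnak (-1.44 ± 0.24), Serinc3 (-1.33 ± 0.12), Ucp2, a mitochondrial carrier (-1.30 ± 0.12), Flna, which crosslinks actin (-1.25 ± 0.21), and Psap, the saposin precursor (-1.01 ± 0.14), fell too.

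The DC label was checked against 18 DC core genes, all of them measured. Their summed level was 10178 to 10701 CPM in AGF+ and 12888 to 13050.1 CPM in AGF− libraries. The MHC class II gene Cd74 alone gave 2520, 2800 and 2559 CPM in AGF+ and 3612, 3812 and 4451 CPM in AGF− libraries. Of the 18 genes, 4 rose and 7 fell, with a median of -0.19, and without the libraries numbered 2, 3 rose and 5 fell. Flt3, the receptor of a DC growth factor, was at 517, 560 and 547 CPM in AGF+ and at 269, 364 and 239 CPM in AGF− cells (0.90 ± 0.16, adjusted p = 0.0011). Zbtb46, a transcription factor of conventional DCs, was at 310, 323 and 315 CPM in AGF+ and at 172, 249 and 133 CPM in AGF− cells (0.78 ± 0.19, adjusted p = 0.0086). Batf3 (0.71 ± 0.18) and Dpp4 (0.49 ± 0.12) rose as well. Irf8, a transcription factor of cDC1 and plasmacytoid DCs, was at 118, 97.5 and 113 CPM in AGF+ and at 756, 377 and 298 CPM in AGF− cells (-2.12 ± 0.33, adjusted p = 3.5e-04), with no overlap between the sorts. Itgax, which encodes the gating protein CD11c, was at 237, 173 and 148 CPM in AGF+ and at 607, 463 and 340 CPM in AGF− cells (-1.33 ± 0.21, adjusted p = 4.7e-04). Bcl11a (-1.01 ± 0.12), Id2 (-1.25 ± 0.27) and the MHC class II genes Cd74 (-0.59 ± 0.12), H2-Ab1 (-0.41 ± 0.11) and H2-Aa (-0.37 ± 0.11) fell. Irf4, a factor of cDC2 and mature DCs, was at 144, 156 and 231 CPM in AGF+ and at 159, 185 and 200.4 CPM in AGF− cells; these overlap, and it did not pass (-0.03 ± 0.19, adjusted p = 0.93). Batf3 lost its call without AGF+ replicate 3 (adjusted p = 0.0508). Dpp4 did not pass without the libraries numbered 2 (adjusted p = 0.070). Itgax was no longer called in a fit of all 21 libraries (adjusted p = 0.059). H2-Ab1 fell short of the threshold without the libraries numbered 2, AGF+ replicate 1 or AGF+ replicate 3 (adjusted p of 0.056 to 0.085). H2-Aa lost its call without the libraries numbered 2, AGF+ replicate 1, AGF+ replicate 3 or AGF− replicate 3 or in a fit of the 6 AireKO libraries (adjusted p of 0.0509 to 0.097).

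Markers of cDC1, cDC2 and plasmacytoid DCs were mostly lower in AGF+ cells. Of 18 cDC1 genes 1 rose and 12 fell (median -1.22), and their sum was 1126 to 1238 CPM in AGF+ and 1706 to 2667 CPM in AGF− libraries; the gene that rose was Batf3. Clec9a, a receptor for dead cells, was at 3.74, 1.69 and 1.71 CPM in AGF+ and at 44.3, 29.6 and 27.2 CPM in AGF− cells (-3.78 ± 0.39, adjusted p = 1.3e-05). Xcr1, the chemokine receptor that marks cDC1, was at 4.81, 3.17 and 4.27 CPM in AGF+ and at 23.3, 24.7 and 20.7 CPM in AGF− cells (-2.47 ± 0.35, adjusted p = 1.8e-04). Naaa, a lysosomal amidase (-2.41 ± 0.21), and Sept3 (-3.76 ± 0.40) fell too. Of 19 cDC2 genes 2 rose and 13 fell (median -1.18), and their sum was 935 to 1047 CPM in AGF+ and 1505 to 1909.9 CPM in AGF− libraries. Cd209a, a C-type lectin with close paralogs, was at 2.32, 1.69 and 2.14 CPM in AGF+ and at 107, 73.0 and 74.2 CPM in AGF− cells (-5.35 ± 0.38, adjusted p = 6.9e-07). The lectins Clec4a2 (-3.82 ± 0.31) and Clec10a (-3.19 ± 0.29) and Ifitm6 (-4.17 ± 0.34) fell, whereas Esam, an adhesion molecule (1.897 ± 0.20), and Ltb, lymphotoxin beta (0.80 ± 0.13), rose.

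Of 16 measured plasmacytoid DC genes 1 rose and 11 fell (median -2.38). Their sum was 900 to 992 CPM in AGF+ and 1336 to 2435 CPM in AGF− libraries. Siglech, a sialic acid-binding lectin of these cells, was at 12.5, 9.94 and 4.70 CPM in AGF+ and at 318, 55.4 and 84.3 CPM in AGF− cells (-4.06 ± 0.69, adjusted p = 7.0e-04). Ly6d, which also marks B cell precursors, was at 1.60, 1.06 and 2.14 CPM in AGF+ and at 80.9, 39.9 and 76.0 CPM in AGF− cells (-5.34 ± 0.42, adjusted p = 1.4e-06). Cd209d (-3.96 ± 0.39), Lifr (-2.49 ± 0.34) and the adaptor Blnk (-1.88 ± 0.26) fell, and Spib, an Ets factor, rose (0.91 ± 0.22). Of 9 Langerhans cell genes 0 rose and 5 fell: Cdh1, E-cadherin (-3.41 ± 0.47), Ahr (-1.05 ± 0.22), Cldn1 (-1.12 ± 0.35), Cd207 and Epcam (-0.99 ± 0.32) fell. Cd207, langerin, was at 0.356, 0.211 and 0.855 CPM in AGF+ and at 1.39, 6.59 and 0.810 CPM in AGF− cells (-2.61 ± 0.82, adjusted p = 0.032); these overlap, and AGF− replicate 2 was the highest. Without the libraries numbered 2 the Langerhans cell genes that fell numbered 2, and 3 without AGF− replicate 2 or any 1 AGF+ library. Siglech had a log2 fold change of -2.93 without AGF− replicate 1 and -3.33 with limma voom. Cd209d had a log2 fold change of -4.68 without AGF+ replicate 1. Spib was no longer called without the libraries numbered 2 (adjusted p = 0.088). Cldn1 fell short of the threshold without the libraries numbered 2, AGF+ replicate 1, AGF+ replicate 3 or AGF− replicate 2 (adjusted p of 0.087 to 0.12). Epcam lost its call without the libraries numbered 2, AGF+ replicate 2, AGF+ replicate 3 or AGF− replicate 3 or in a fit of the 6 AireKO libraries (adjusted p of 0.082 to 0.16). Cd207 did not pass without AGF+ replicate 1, AGF+ replicate 2 or AGF− replicate 2 (adjusted p of 0.11 to 0.27), and its log2 fold change was -3.26 without AGF+ replicate 3 and -1.19 without AGF− replicate 2.

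Markers of NK and T cells were mostly lower in AGF+ cells. All 18 measured NK cell genes fell (median -6.33), and their sum was 201 to 218 CPM in AGF+ and 656 to 1529.6 CPM in AGF− libraries. Gzmb, granzyme B, had 0 counts in AGF+ libraries and was at 36.4, 3.66 and 28.6 CPM in AGF− cells, at least 112-fold lower against a floor of 3 counts over the group (adjusted p = 0.0023). Ncr1, the receptor NKp46, was at 0, 0.423 and 0.427 CPM in AGF+ and at 102, 11.5 and 39.7 CPM in AGF− cells (-7.45 ± 1.24, adjusted p = 9.9e-04). AGF− replicate 2 was the lowest of its sort for both genes and still above every AGF+ library, which the ranking of falls required. Il2rb, an interleukin receptor chain (-6.18 ± 0.81), Nkg7 (-6.94 ± 0.93), Klrb1c (-6.49 ± 1.08), Klrk1 (-3.24 ± 0.42) and Klrd1 (-1.57 ± 0.15) fell. Gzma, granzyme A, was lower (284-fold, 95% counting interval 96.8 to 1379, adjusted p = 5.6e-04), and so was Cd163l1, a scavenger receptor of gamma-delta T cells (575-fold, 95% counting interval 159 to 4756, adjusted p = 7.7e-04). Klrc1 (417-fold, 95% counting interval 74.4 to 16494, adjusted p = 1.9e-04) and Klrc2 (279-fold, 95% counting interval 49.7 to 11073, adjusted p = 4.0e-04) are near copies that can share reads. Of 18 T cell genes 0 rose and 14 fell (median -3.17), with a sum of 70.8 to 123 CPM in AGF+ and 149 to 599 CPM in AGF− libraries. Cd3g, a chain of the T cell receptor complex, was at 0.178, 0.211 and 1.28 CPM in AGF+ and at 16.5, 4.57 and 23.9 CPM in AGF− cells (-4.74 ± 0.94, adjusted p = 0.0022). Cd28 (-3.98 ± 0.81), Lat (-4.43 ± 0.90) and Trbc1 (-4.57 ± 0.98) fell too. Ncr1 had a log2 fold change of -8.32 without the libraries numbered 2, -6.82 without AGF+ replicate 1, -6.45 without AGF− replicate 1 and -6.41 with limma voom. Il2rb had a log2 fold change of -5.21 without AGF− replicate 1 and -5.46 with limma voom. Nkg7 had a log2 fold change of -5.71 with limma voom. Klrb1c had a log2 fold change of -7.66 without the libraries numbered 2, -7.20 without AGF+ replicate 2, -5.68 without AGF− replicate 1 and -5.20 with limma voom. Gzma lost its call with limma voom (adjusted p = 0.075). Cd163l1 did not pass with limma voom (adjusted p = 0.071). Cd3g had a log2 fold change of -6.101 without AGF+ replicate 3. Cd28 had a log2 fold change of -5.91 without AGF+ replicate 3. Lat had a log2 fold change of -5.79 without AGF+ replicate 3 and -3.61 without AGF− replicate 3. Trbc1 had a log2 fold change of -6.503 without AGF+ replicate 3.

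Markers of B cells, plasma cells and monocytes were lower as well. Of 19 B cell genes 1 rose and 18 fell (median -3.93), Spib being the exception, with a sum of 506 to 550 CPM in AGF+ and 1611 to 3090.2 CPM in AGF− libraries. Cd79a, a signalling chain of the B cell receptor, was at 1.96, 1.903 and 1.496 CPM in AGF+ and at 29.0, 53.2 and 71.5 CPM in AGF− cells (-4.82 ± 0.46, adjusted p = 6.3e-06). Blk (-5.66 ± 0.44), Fcrla (-4.39 ± 0.32), Cd22 (-3.30 ± 0.30) and Ighm (-2.53 ± 0.23) fell. Of 9 plasma cell genes 0 rose and 7 fell (median -3.52). Igha, the IgA heavy chain, was at 0.713, 0 and 1.496 CPM in AGF+ and at 11.9, 23.4 and 1226 CPM in AGF− cells, so its level rests on AGF− replicate 3. Of 24 monocyte and macrophage genes 0 rose and 17 fell (median -1.76), with a sum of 624 to 1189 CPM in AGF+ and 3026 to 4467 CPM in AGF− libraries. Ccr2, which draws monocytes into tissue, was at 4.81, 2.11 and 1.28 CPM in AGF+ and at 256, 109 and 267 CPM in AGF− cells (-6.21 ± 0.48, adjusted p = 1.4e-06). Ace, angiotensin-converting enzyme, was at 1.07, 0.211 and 1.71 CPM in AGF+ and at 307, 92.0 and 63.2 CPM in AGF− cells (-7.23 ± 0.77, adjusted p = 1.7e-05), and Ly6c2 (-6.06 ± 0.69) and Adgre1, F4/80 (-2.24 ± 0.29), fell. The complement gene C1qa of macrophages was at 8.55, 2.11 and 1.71 CPM in AGF+ and at 12.1, 8.60 and 5.27 CPM in AGF− cells and did not pass (-1.03 ± 0.50, adjusted p = 0.15). The part of RNA from these cell types in the other differences between the sorts was not tested. Blk had a log2 fold change of -6.30 without the libraries numbered 2. Igha did not pass with limma voom (adjusted p = 0.093). Ccr2 had a log2 fold change of -6.93 without AGF+ replicate 1. Ace had a log2 fold change of -6.25 without AGF− replicate 1. Ly6c2 had a log2 fold change of -7.08 without the libraries numbered 2, -6.67 without AGF+ replicate 2 and -5.32 with limma voom.

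**Figure D2:**
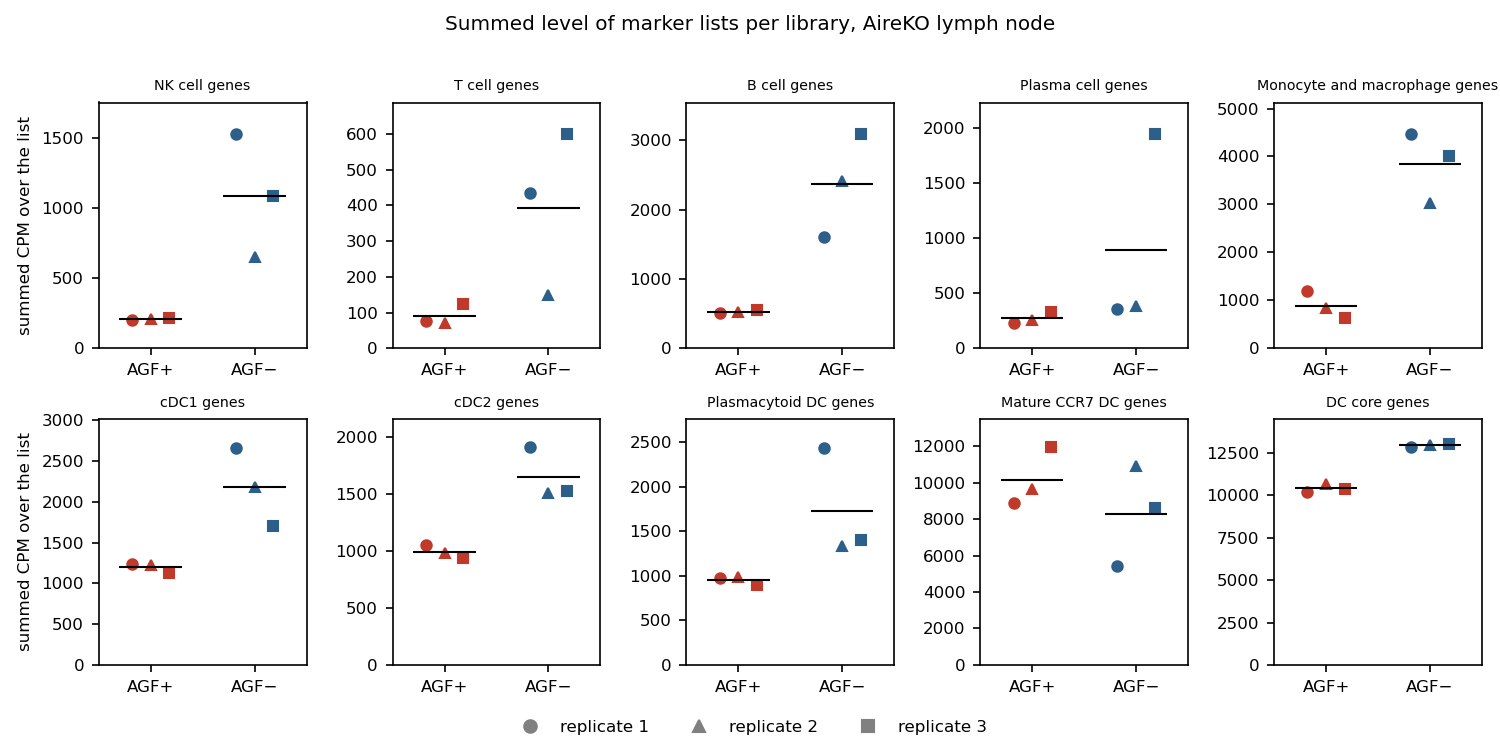
Summed CPM of 10 marker lists in each AireKO lymph node library (linear axes from 0), AGF+ left and AGF− right, with a symbol for each replicate number and a line at the mean of 3 libraries. In the NK, T, B, plasma cell, monocyte, cDC1, cDC2, plasmacytoid DC and DC core lists every AGF− library lay above every AGF+ library, while the mature CCR7 DC sums overlapped. The NK list holds Ccl5, which is also on the mature CCR7 DC list. The DC core list holds the MHC class II genes Cd74, H2-Aa and H2-Ab1.

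Genes of the mature CCR7 state stood at high levels in both sorts. Their sum was 8895, 9628 and 11944 CPM in AGF+ and 5425, 10894 and 8605 CPM in AGF− libraries, and of 34 genes 9 rose and 4 fell (median 0.26). Ccr7 was at 173, 251 and 256 CPM in AGF+ and at 136, 320 and 186 CPM in AGF− cells; these overlap, and it did not pass (0.08 ± 0.30, adjusted p = 0.87). Cd80, a ligand of CD28 and CTLA-4, was at 107, 109 and 120 CPM in AGF+ and at 40.4, 54.5 and 74.6 CPM in AGF− cells (0.99 ± 0.19, adjusted p = 0.0020). Fscn1, which bundles actin in mature DCs, was at 1336, 1401 and 1840.1 CPM in AGF+ and at 549, 1239 and 918 CPM in AGF− cells (0.76 ± 0.26, adjusted p = 0.0462). Ebi3, a cytokine subunit, rose (1.02 ± 0.21), with 23.4% of its exon bases over another gene. Pdcd1lg2, PD-L2, was at 6.95, 5.92 and 10.04 CPM in AGF+ and at 19.9, 18.1 and 20.9 CPM in AGF− cells (-1.36 ± 0.23, adjusted p = 6.4e-04). Ccl5 fell (-1.29 ± 0.27). Aldh1a2, which makes retinoic acid, was at 3.92, 3.17 and 5.34 CPM in AGF+ and at 8.35, 33.1 and 8.71 CPM in AGF− cells (-2.02 ± 0.50, adjusted p = 0.0082), with AGF− replicate 2 the highest. The number that rose was 5 without AGF+ replicate 1, 3 without AGF+ replicate 3, 5 without AGF− replicate 1 and 4 in a fit of the 6 AireKO libraries alone. With the libraries numbered 2 left out, 8 rose and 2 fell. Fscn1 lost its call without AGF+ replicate 1, AGF+ replicate 2, AGF+ replicate 3, AGF− replicate 1, AGF− replicate 3, KI/+ AGF+ replicate 3, KI/+ AGF− replicate 1, KI/+ AGF− replicate 2 or KI/+ AGF− replicate 3, with limma voom or in a fit of the 6 AireKO libraries (adjusted p of 0.0530 to 0.16). Ebi3 did not pass without the libraries numbered 2 (adjusted p = 0.050). Aldh1a2 was no longer called without the libraries numbered 2 or in a fit of all 21 libraries (adjusted p of 0.097 to 0.14), and its log2 fold change was -0.88 without the libraries numbered 2 and -1.04 without AGF− replicate 2.

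Of 18 measured genes of a list for extrathymic antigen-presenting cells that can express Aire 11 rose and 2 fell, with a median of 0.95, and without the libraries numbered 2, 9 rose and 3 fell. Over all tested genes 11.4% rose and 13.3% fell. Cxcr6, a chemokine receptor, was among the members that fell. It did not pass without AGF+ replicate 2, AGF+ replicate 3 or AGF− replicate 1 or with limma voom (adjusted p of 0.0519 to 0.075). The list holds Aire, whose reporter defined the sort, and Slc7a10, Ncam1, Spib and Zbtb46. Gal, the neuropeptide galanin, was at 5.70, 5.92 and 9.62 CPM in AGF+ and at 0.398, 0.732 and 0.405 CPM in AGF− cells (3.71 ± 0.57, adjusted p = 3.5e-04). Tnfrsf11b, osteoprotegerin, the decoy receptor of RANK ligand, was at 4.28, 6.34 and 11.3 CPM in AGF+ and at 0, 0.183 and 1.42 CPM in AGF− cells (3.74 ± 0.75, adjusted p = 0.0023). Trp63, a p53 family factor of epithelia, was at 1.96, 4.23 and 2.78 CPM in AGF+ and at 0, 0 and 0.405 CPM in AGF− cells (22.6-fold, 95% counting interval 5.90 to 192, adjusted p = 0.0022). Of 15 innate lymphoid genes 3 rose and 7 fell. Il1r1, an interleukin 1 receptor, was at 61.3, 61.3 and 51.1 CPM in AGF+ and at 23.3, 13.7 and 21.7 CPM in AGF− cells (1.57 ± 0.24, adjusted p = 3.1e-04), and Tcf7 (1.22 ± 0.26) and Ltb rose, while Thy1 (-4.17 ± 0.79) and Ncr1 fell. Of the epithelial genes 5 of 15 were measured: Trp63, Cd80, Tnfrsf11a and Ly75, an endocytic receptor (0.74 ± 0.20), rose and Epcam fell. The keratin gene Krt5 had 1 count in AGF+ and 2 in AGF− libraries, and Foxn1, the master factor of thymic epithelium, 1 in AGF+ and 1 in AGF− libraries. Tnfrsf11b had a log2 fold change of 5.92 without AGF− replicate 3 and 4.53 with limma voom. Thy1 had a log2 fold change of -4.86 without AGF+ replicate 1. Ly75 was no longer called without AGF+ replicate 3 (adjusted p = 0.071).

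Tissue antigens that depend on Aire in the thymus were mostly at or near the counting floor. Of 32 listed, 30 are in the table and 1 passed the expression filter. It was Krt10, a keratin, at 2.32, 1.69 and 2.14 CPM in AGF+ and at 1.19, 0.915 and 2.43 CPM in AGF− cells, with no call (0.45 ± 0.44, adjusted p = 0.50). Ins2, insulin, had 0 counts in AGF+ and 0 in AGF− libraries. Of 23 genes whose proteins bind or act with Aire, 2 rose and 2 fell (17.4% of them, against 24.7% of all tested genes; median -0.08). With the replicate block 3 rose and 4 fell. Without the block, Hipk2, a kinase (0.48 ± 0.11), and Mbd1, which binds methylated DNA (0.35 ± 0.11), rose, and Top2a, topoisomerase II alpha (-1.06 ± 0.18), and Daxx, a histone chaperone (-0.54 ± 0.13), fell. Hipk2 lost its call without the libraries numbered 2 (adjusted p = 0.10). Mbd1 did not pass without the libraries numbered 2, AGF+ replicate 1, AGF+ replicate 2, AGF+ replicate 3, AGF− replicate 1, AGF− replicate 3 or KI/+ AGF+ replicate 3, with limma voom, with no filter on low counts or in a fit of the 6 AireKO libraries (adjusted p of 0.0519 to 0.12). Daxx was no longer called without the libraries numbered 2 (adjusted p = 0.068).

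The RANK and NF-kB genes belong to the pathway that induces Aire in the thymus. Of 29 measured 6 rose and 1 fell (24.1% called, near the 24.7% of all tested genes; median 0.22). Tnfrsf11a, which encodes RANK, was at 215, 255 and 264 CPM in AGF+ and at 104, 192 and 127 CPM in AGF− cells (0.80 ± 0.20, adjusted p = 0.0081). Nfkb2, the precursor of the p52 subunit, was at 503, 519 and 549 CPM in AGF+ and at 331, 432 and 360 CPM in AGF− cells (0.48 ± 0.13, adjusted p = 0.014). The sorts did not overlap for either. Tnip1 (0.57 ± 0.11) and Nfkbie (0.43 ± 0.12), inhibitors of the pathway, and Tnfrsf11b rose, and Traf5, a receptor adaptor, fell (-0.59 ± 0.17). Relb, the partner of p52, was at 559, 553 and 576 CPM in AGF+ and at 332, 494 and 278 CPM in AGF− cells; the sorts did not overlap, yet it did not pass (0.61 ± 0.23, adjusted p = 0.068). With the replicate number as a block 10 rose, and without AGF+ replicate 3, 3 did. Nfkb2 lost its call without AGF+ replicate 3 or AGF− replicate 1 (adjusted p of 0.0521 to 0.057). Nfkbie did not pass without the libraries numbered 2, AGF+ replicate 3 or AGF− replicate 3 (adjusted p of 0.056 to 0.089). Traf5 was no longer called without the libraries numbered 2, AGF+ replicate 1, AGF+ replicate 2, AGF− replicate 2 or AGF− replicate 3 or in a fit of the 6 AireKO libraries (adjusted p of 0.0549 to 0.28).

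Costimulatory and checkpoint ligands moved in both directions. Of 22 measured 7 rose and 5 fell (median 0.20). Icosl and Cd80, given above, rose with Cd86 (0.94 ± 0.26), Cd70 (1.46 ± 0.37), Nectin2 (0.98 ± 0.28), Cd200 (1.15 ± 0.31) and Tnfsf4. Tnfsf4, the OX40 ligand, was at 8.02, 8.67 and 15.2 CPM in AGF+ and at 0.994, 1.83 and 4.66 CPM in AGF− cells (2.08 ± 0.43, adjusted p = 0.0029). Vsir, the checkpoint protein VISTA, was at 80.9, 72.1 and 61.3 CPM in AGF+ and at 198, 140 and 160 CPM in AGF− cells (-1.21 ± 0.16, adjusted p = 8.5e-05). Lgals9, galectin 9 (-1.32 ± 0.18), Pvr (-0.75 ± 0.25), Cd48 (-0.64 ± 0.18) and Pdcd1lg2 fell too. Cd274, PD-L1, was at 279, 343 and 422 CPM in AGF+ and at 194, 246 and 380 CPM in AGF− cells; these overlap, and it did not pass (0.35 ± 0.21, adjusted p = 0.26). The number that rose was 4 without AGF+ replicate 3, and the number that fell was 3 without AGF+ replicate 2 and 3 without AGF− replicate 3. Of 21 tolerance-associated genes 3 rose and 5 fell (38.1% called against 24.7% of all tested genes, median -0.10). With the replicate block 5 rose and 6 fell. Without the block, Tyro3, a receptor kinase (1.56 ± 0.54), Cd200 and Il4i1, an amino acid oxidase (1.13 ± 0.33), rose, and Tgfb1, Pdcd1lg2, Aldh1a2, Nt5e, which makes adenosine (-1.93 ± 0.40), and Ctla4 (66.7-fold, 95% counting interval 18.1 to 556, adjusted p = 0.0049) were lower. Without the libraries numbered 2, 0 rose and 4 fell. Cd86 lost its call without the libraries numbered 2 or AGF+ replicate 3 or in a fit of the 6 AireKO libraries (adjusted p of 0.069 to 0.086). Cd70 did not pass without AGF+ replicate 3 or with limma voom (adjusted p of 0.0509 to 0.0520). Nectin2 was no longer called without AGF+ replicate 1, AGF− replicate 1 or AGF− replicate 3 (adjusted p of 0.0533 to 0.094). Cd200 fell short of the threshold without the libraries numbered 2, AGF+ replicate 3, AGF− replicate 1 or AGF− replicate 2 (adjusted p of 0.0539 to 0.091). Tnfsf4 had a log2 fold change of 2.87 without AGF− replicate 3. Pvr did not pass without the libraries numbered 2, AGF+ replicate 1, AGF+ replicate 2, AGF+ replicate 3, AGF− replicate 2, AGF− replicate 3, KI/+ AGF+ replicate 1, KI/+ AGF− replicate 1, KI/+ AGF− replicate 2 or KI/+ AGF− replicate 3 or in a fit of the 6 AireKO libraries (adjusted p of 0.0502 to 0.21). Cd48 was no longer called without AGF+ replicate 2 or AGF− replicate 3 (adjusted p of 0.068 to 0.076). Tyro3 fell short of the threshold without the libraries numbered 2, AGF+ replicate 1, AGF+ replicate 2, AGF+ replicate 3, AGF− replicate 2, AGF− replicate 3, KI/+ AGF+ replicate 1, KI/+ AGF+ replicate 2, KI/+ AGF+ replicate 3, KI/+ AGF− replicate 1, KI/+ AGF− replicate 2 or KI/+ AGF− replicate 3 or in a fit of the 6 AireKO libraries (adjusted p of 0.058 to 0.29), and its log2 fold change was 2.84 without AGF− replicate 1. Il4i1 lost its call without the libraries numbered 2, AGF+ replicate 1, AGF+ replicate 2 or AGF− replicate 3 or in a fit of the 6 AireKO libraries (adjusted p of 0.058 to 0.11).

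Of the MHC class II genes that passed, all but H2-DMb2 were lower. Of 21 measured 1 rose and 10 fell (median -0.41), with a sum of 10845 to 11472 CPM in AGF+ and 13908 to 16572 CPM in AGF− libraries. Cd74, the invariant chain, was at 2520.2, 2799.8 and 2559 CPM in AGF+ and at 3612, 3812 and 4451 CPM in AGF− cells (adjusted p = 0.0022). March1, a ubiquitin ligase that takes MHC class II off the cell surface, was at 51.1, 32.8 and 34.6 CPM in AGF+ and at 147, 132 and 177 CPM in AGF− cells (-1.94 ± 0.17, adjusted p = 4.0e-06). The peptide exchange genes split: H2-DMb2 was at 495, 535 and 514 CPM in AGF+ and at 281, 340 and 295 CPM in AGF− cells (0.75 ± 0.15, adjusted p = 0.0020), and H2-Ob, which restrains exchange, fell (-1.02 ± 0.18). H2-DMa fell too, but lost its call without the libraries numbered 2 (log2 fold change -0.505, adjusted p = 0.0546). Cd9, a tetraspanin, fell (-1.66 ± 0.18). With the libraries numbered 2 left out, 1 rose and 6 fell. Of 17 MHC class I presentation genes 3 rose and 1 fell (23.5% called, near the share of all tested genes; median -0.01), and with the replicate block 5 rose. Tap1, a subunit of the peptide transporter, was at 1119, 1026 and 1243 CPM in AGF+ and at 710, 831 and 704 CPM in AGF− cells (0.59 ± 0.15, adjusted p = 0.0082). Tap2, the other subunit (0.55 ± 0.14), and H2-Q7 (0.86 ± 0.16), whose reads can be shared with other class I genes, rose, and Pdia3, a chaperone of peptide loading, fell (-0.58 ± 0.13). Tap2 lost its call without AGF+ replicate 3 (adjusted p = 0.063).

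Of the chemokine, cytokine and innate sensor genes that passed, most were lower. Of 30 chemokine and receptor genes 1 rose and 16 fell (median -1.26), the one that rose being Cxcl11 (1.79 ± 0.57). Ccl9, a myeloid chemokine, was at 7.30, 4.44 and 5.56 CPM in AGF+ and at 31.6, 32.0 and 35.3 CPM in AGF− cells (-2.499 ± 0.18, adjusted p = 9.1e-07). Ccl6 (-2.83 ± 0.28) and the receptors Cxcr3 (-4.84 ± 0.60) and Cx3cr1 (-3.24 ± 0.42) fell. Of 18 cytokine genes 3 rose and 6 fell (median -0.17). Il1b was at 6.23, 5.07 and 8.33 CPM in AGF+ and at 39.4, 35.5 and 52.7 CPM in AGF− cells (-2.696 ± 0.33, adjusted p = 6.2e-05). Tgfb1 (-1.18 ± 0.15) and Il16 (-1.43 ± 0.23) fell, and Tgfb2 (2.01 ± 0.43), Ebi3 and Ltb rose. Of 28 innate sensors 1 rose and 11 fell (median -0.33). Tlr7, an endosomal sensor of single-stranded RNA, was at 7.13, 4.02 and 3.42 CPM in AGF+ and at 67.4, 33.1 and 51.3 CPM in AGF− cells (-3.35 ± 0.32, adjusted p = 7.7e-06). Its relative Tlr8 (-4.42 ± 0.41), the adaptor Myd88 (-1.34 ± 0.15), Clec7a, the receptor Dectin-1 (-2.48 ± 0.32), and the inflammasome sensor Nlrp3 (-1.40 ± 0.20) fell, and Nod2, a sensor of bacterial cell wall, rose (0.77 ± 0.18). Monocyte marker sums were lower in the same libraries, as given above, and their part in these results was not tested. Cxcl11 lost its call without the libraries numbered 2, AGF+ replicate 1, AGF+ replicate 2, AGF+ replicate 3, AGF− replicate 1 or AGF− replicate 2 or with DESeq2 (adjusted p of 0.0535 to 0.22), and its log2 fold change was 2.65 without AGF− replicate 3. Cx3cr1 had a log2 fold change of -3.92 without AGF+ replicate 1.

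Cell cycle genes were lower in AGF+ cells. Of 30 measured 0 rose and 19 fell (median -1.08), with a sum of 346 to 427 CPM in AGF+ and 590 to 734 CPM in AGF− libraries. Kif23, a kinesin of cytokinesis, was at 5.52, 5.50 and 8.12 CPM in AGF+ and at 16.5, 19.9 and 17.6 CPM in AGF− cells (-1.500 ± 0.20, adjusted p = 1.3e-04). Bub1b, of the spindle checkpoint, was at 10.9, 9.30 and 11.1 CPM in AGF+ and at 25.0, 22.9 and 21.3 CPM in AGF− cells (-1.14 ± 0.17, adjusted p = 2.7e-04). The sorts did not overlap for either gene. Rrm2, of nucleotide synthesis (-2.22 ± 0.36), Ccnb2, a mitotic cyclin (-1.70 ± 0.29), and Top2a fell as well. Without the libraries numbered 2, 0 rose and 12 fell, and 11 fell without AGF+ replicate 1. The lymphocyte and monocyte sums were lower in the same libraries, and their part in this result was not tested. The promoters of Kif23 and Bub1b are printed because both genes fell and both windows hold the CHR element (TTTGAA) and the CCAAT box known from genes of late cell cycle; capitals mark these letters on either strand (RefSeq, GRCm38.p6, 250 bases before to 50 after the annotated start).
Kif23 (chr9:61946750-61947049, minus strand): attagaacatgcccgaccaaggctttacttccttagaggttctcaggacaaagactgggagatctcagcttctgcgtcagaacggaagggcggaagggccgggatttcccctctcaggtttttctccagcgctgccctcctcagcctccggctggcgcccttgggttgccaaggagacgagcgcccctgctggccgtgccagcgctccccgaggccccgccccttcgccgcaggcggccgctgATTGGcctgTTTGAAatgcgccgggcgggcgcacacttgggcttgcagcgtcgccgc
Bub1b (chr2:118597961-118598260, plus strand): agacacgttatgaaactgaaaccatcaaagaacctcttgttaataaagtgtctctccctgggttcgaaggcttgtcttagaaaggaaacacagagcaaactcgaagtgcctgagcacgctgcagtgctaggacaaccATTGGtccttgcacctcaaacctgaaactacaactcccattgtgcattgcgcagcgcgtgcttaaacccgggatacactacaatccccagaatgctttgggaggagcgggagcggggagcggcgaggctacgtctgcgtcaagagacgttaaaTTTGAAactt
TTTGAA was searched on both strands. It was in 10 of 17 genes that fell and have a promoter (58.8%), and in 3 of 8 with no call (37.5%). Of all 27025 genes with a promoter in the table, 20.2% had a match in any promoter. CCAAT was in 15 of 17 genes that fell and have a promoter (88.2%), in 5 of 8 with no call (62.5%) and in 41.1% of all 27025 genes. Such a match describes letters in a window and not a bound site.

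Interferon-stimulated genes were also lower, with small to moderate changes. Of 26 measured 0 rose and 16 fell (median -0.74), with a sum of 1442 to 1537 CPM in AGF+ and 2201 to 2369 CPM in AGF− libraries. Irf7, a driver of type I interferon, was at 52.4, 49.1 and 39.8 CPM in AGF+ and at 209, 114 and 151 CPM in AGF− cells (-1.75 ± 0.27, adjusted p = 3.6e-04). Stat2, a transducer of the interferon receptor, was at 139, 148 and 134 CPM in AGF+ and at 221, 192 and 199.6 CPM in AGF− cells (-0.54 ± 0.13, adjusted p = 0.0062). Oas3, a sensor of double-stranded RNA, was at 43.1, 42.1 and 42.3 CPM in AGF+ and at 77.7, 73.5 and 90.8 CPM in AGF− cells (-0.92 ± 0.26, adjusted p = 0.017). Cmpk2 (-1.48 ± 0.21), Rtp4 (-1.47 ± 0.26), Oas2 (-1.26 ± 0.28) and Zbp1 (-0.83 ± 0.18) fell. Isg15, a ubiquitin-like protein, was at 1.78, 1.06 and 1.496 CPM in AGF+ and at 2.78, 3.29 and 2.84 CPM in AGF− cells and did not pass (-1.02 ± 0.38, adjusted p = 0.069). The number that fell was 6 without the libraries numbered 2, 8 without AGF+ replicate 1, 10 without AGF− replicate 3 and 8 in a fit of all 21 libraries. Stat2 lost its call in a fit of all 21 libraries (adjusted p = 0.0506). Oas3 did not pass without the libraries numbered 2, AGF+ replicate 1, AGF+ replicate 2, AGF+ replicate 3 or AGF− replicate 3 or in a fit of all 21 libraries (adjusted p of 0.0505 to 0.11). Zbp1 was no longer called without the libraries numbered 2 or in a fit of all 21 libraries (adjusted p of 0.069 to 0.082). The promoters of Stat2 and Oas3 are printed because they hold the core of the interferon-stimulated response element, GAAANNGAAA, in capitals on either strand.
Stat2 (chr10:128270248-128270547, plus strand): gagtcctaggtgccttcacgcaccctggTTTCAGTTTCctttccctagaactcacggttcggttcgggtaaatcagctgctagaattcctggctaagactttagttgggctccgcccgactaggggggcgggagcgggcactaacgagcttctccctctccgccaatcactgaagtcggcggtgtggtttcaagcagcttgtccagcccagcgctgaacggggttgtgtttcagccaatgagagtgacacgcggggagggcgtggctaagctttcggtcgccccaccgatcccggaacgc
Oas3 (chr5:120777610-120777909, minus strand): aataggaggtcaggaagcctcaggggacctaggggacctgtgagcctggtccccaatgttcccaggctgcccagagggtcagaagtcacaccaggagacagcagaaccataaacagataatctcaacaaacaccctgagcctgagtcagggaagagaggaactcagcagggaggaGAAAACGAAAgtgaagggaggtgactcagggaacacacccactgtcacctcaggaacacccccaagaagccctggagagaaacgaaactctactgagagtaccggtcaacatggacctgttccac
GAAANNGAAA was in 5 of 11 genes that fell and have a promoter in the table (45.5%), and in 3 of 7 with no call (42.9%). Of all 27025 genes with a promoter there, 3.99% had a match in any promoter.

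Of 18 glycolysis genes 0 rose and 9 fell (median -0.40), against 13.3% of all tested genes that fell, and without the libraries numbered 2, 0 rose and 5 fell. Eno1, enolase, was at 61.3, 55.2 and 59.2 CPM in AGF+ and at 176, 143 and 166 CPM in AGF− cells (-1.47 ± 0.11, adjusted p = 1.4e-06). Ldha, lactate dehydrogenase (-0.94 ± 0.16), Pfkp, a phosphofructokinase (-0.78 ± 0.12), Pgk1 (-0.68 ± 0.14) and Pkm (-0.47 ± 0.10) fell. Of 24 cholesterol genes 0 rose and 4 fell (16.7%, median -0.29), a share near that of all tested genes. They were Nr1h3, the liver X receptor alpha (-1.33 ± 0.29), Stard4 (-0.77 ± 0.19), Insig1 (-0.61 ± 0.19) and Mylip (-0.41 ± 0.14). With the libraries numbered 2 left out, 2 cholesterol genes fell, and 2 without AGF+ replicate 1, AGF+ replicate 2 or AGF− replicate 3. Of 9 measured mitochondrially encoded genes 0 rose and 0 fell (median -0.56), and with the replicate number as a block 3 fell. In KI/+ mice 6 of them were lower. Their sum was 14642, 14704 and 16321 CPM in AGF+ and 17544, 16545 and 22364 CPM in AGF− libraries, lower in AGF+ cells in each same-numbered pair. Pgk1 lost its call without the libraries numbered 2 (adjusted p = 0.065). Pkm did not pass without the libraries numbered 2 (adjusted p = 0.0501). Insig1 was no longer called without the libraries numbered 2, AGF+ replicate 1, AGF+ replicate 2, AGF− replicate 2 or AGF− replicate 3 (adjusted p of 0.064 to 0.14). Mylip fell short of the threshold without the libraries numbered 2, AGF+ replicate 1, AGF+ replicate 2, AGF+ replicate 3, AGF− replicate 1, AGF− replicate 3, KI/+ AGF+ replicate 3 or KI/+ AGF− replicate 1, scaled by library size alone, with no filter on low counts, in a fit of the 6 AireKO libraries or in a fit of all 21 libraries (adjusted p of 0.0530 to 0.29).

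Most transcription factor genes that changed were lower. Of 57 measured 5 rose and 28 fell (median -0.61), and without the libraries numbered 2, 5 rose and 25 fell. Those that rose were Trp63, Spib, Zbtb46, Batf3 and Nfkb2, given above. Klf2, a factor of lymphocyte quiescence and trafficking, was at 3.385, 4.86 and 4.06 CPM in AGF+ and at 45.9, 34.6 and 39.5 CPM in AGF− cells (-3.29 ± 0.21, adjusted p = 3.9e-07). Ikzf3, Aiolos, a factor of B and other lymphoid cells, was at 4.81, 6.77 and 8.55 CPM in AGF+ and at 170, 130 and 187 CPM in AGF− cells (-4.61 ± 0.29, adjusted p = 3.9e-07). Runx1 was at 110, 111 and 107 CPM in AGF+ and at 287, 272 and 290 CPM in AGF− cells (-1.37 ± 0.12, adjusted p = 4.0e-06). The sorts did not overlap for these 3. Nfatc1 (-1.22 ± 0.12) and Zeb2, a factor of cDC2 and plasmacytoid DCs (-0.95 ± 0.11), fell, as did Klf4 (-1.84 ± 0.24) and Maf (-3.15 ± 0.60). Lymphocyte and monocyte sums were lower in the same libraries, and their part in these results was not tested. Maf had a log2 fold change of -2.30 with limma voom.

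**Figure D3:**
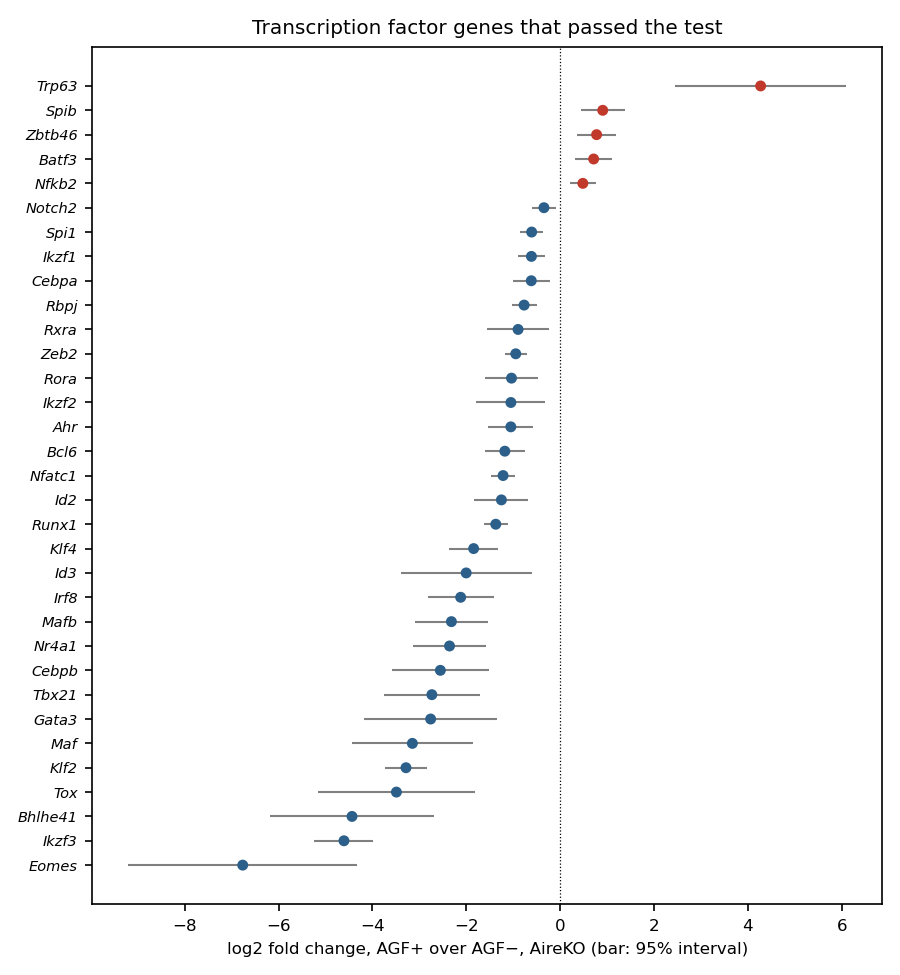
Log2 fold change (AGF+ over AGF−, AireKO) of the 33 transcription factor genes that passed the test, with 95% intervals from the fit of 12 lymph node libraries. Of these, 5 lay above 0 and 28 below. Trp63, with 2 counts in all AGF− libraries, and Eomes, with 1 count in all AGF+ libraries, have fitted values that rest on very few counts in 1 sort.

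**Figure D4:**
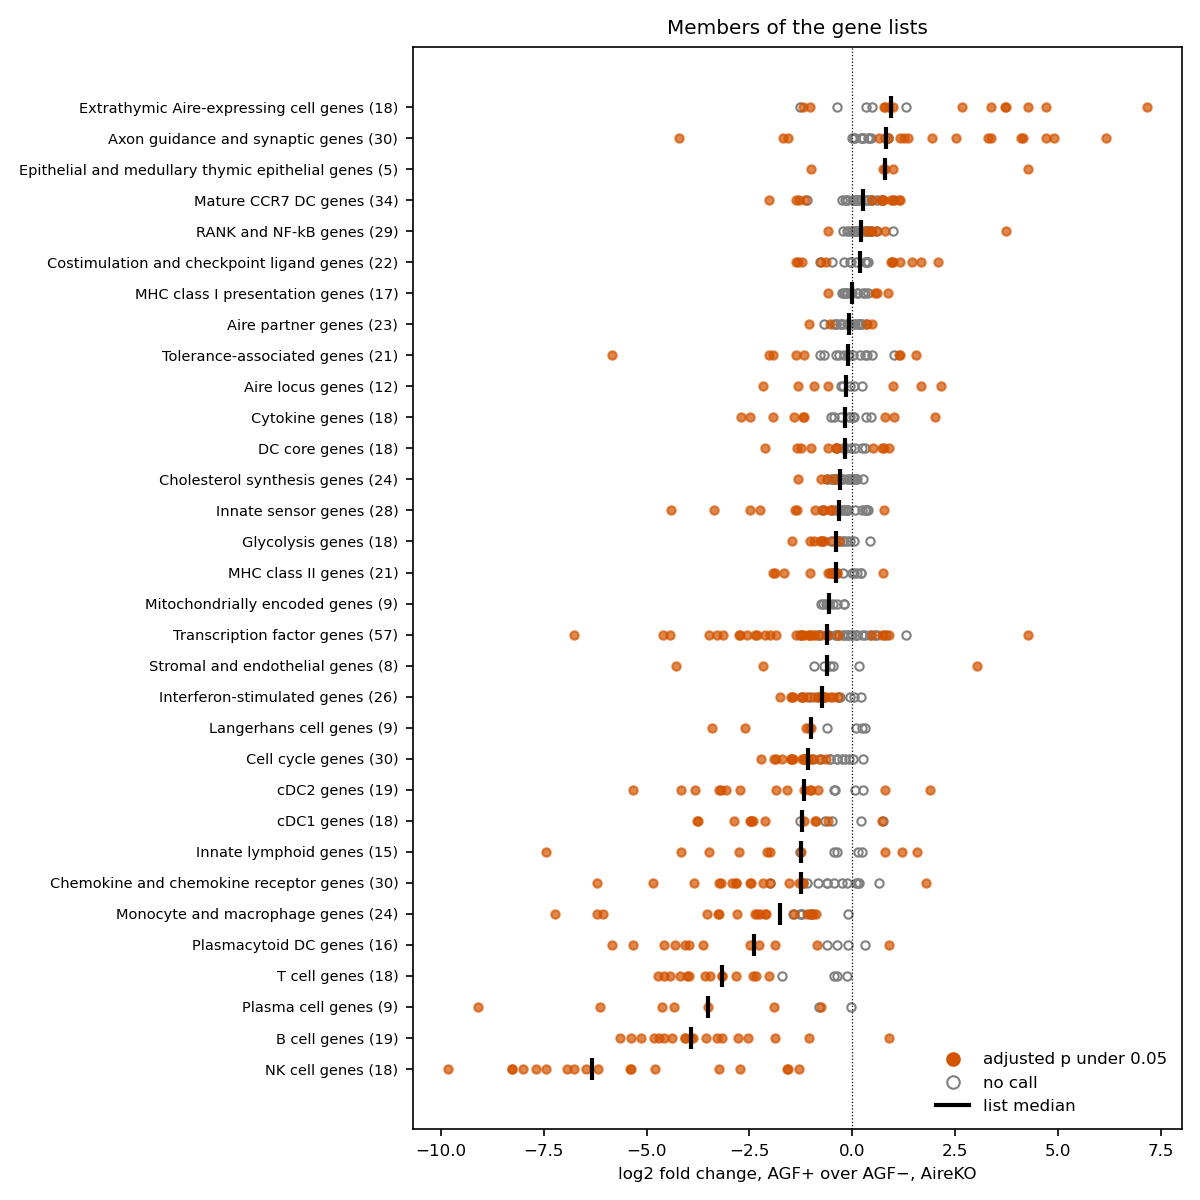
Log2 fold change (AGF+ over AGF−, AireKO) of each measured member of the gene lists with at least 5 measured members; filled points passed the test and bars are medians. The median was 0.95 for the genes of extrathymic Aire-expressing cells and -6.33 for the NK cell genes, against 0.00667 over all tested genes.

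The AireKO change was set beside that in KI/+ mice, which rests on other libraries. In KI/+ mice 3349 genes (21.1%) passed, 1603 (10.1%) higher and 1746 (11%) lower in AGF+ cells. Of the 2171 genes that changed at least 2-fold in AireKO mice, 2163 had the same sign in KI/+ mice and 1712 (78.9%) were called the same way. Of the 8 with the other sign, 0 were called in KI/+ mice. The test of the difference called 1 gene, Aire (0.0063%), and 261 genes (1.64%) had an unadjusted p under 0.05. Fn1, fibronectin, came next and did not pass. It was at 0.534, 1.06 and 0.855 CPM in AGF+ and at 27.4, 38.6 and 48.4 CPM in AGF− AireKO cells, and averaged 6.76 ± 2.48 CPM in AGF+ and 27.0 ± 7.34 CPM in AGF− KI/+ cells (SD, n = 3 each), a difference of -3.51 ± 0.53 (adjusted p = 0.092). The 95% interval of the difference lay within 1 log2 unit of 0 for 444 of the 2171 genes (20.5%), and its median half-width was 1.1004. By list, 0 cell cycle genes were higher and 19 lower in KI/+ AGF+ cells, and of the NK cell genes 0 were higher and 15 lower. Outside the rule for naming genes, and chosen after their values were seen, were Lrrc3, Agpat3, Syt1, Nrxn2, Nlgn2, Sema6d, Sema4c, Sema7a, Sema4b, Epha2, Zbtb46, Batf3, Dpp4, Id2, H2-Ab1, H2-Aa, H2-DMa, Irf4, Siglech, Spib, C1qa, Ccr7, Fscn1, Cxcr6, Krt10, Traf5, Relb, Cd86, Cd70, Nectin2, Cd200, Tnfsf4, Pvr, Cd48, Cd274, Tyro3, Il4i1, Cxcl11, Tgfb2, Nod2, Stat2, Oas3, Isg15, Klf4, Maf and Fn1. So were Krt5, Foxn1, Ins2 and Eomes.

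**Figure D5:**
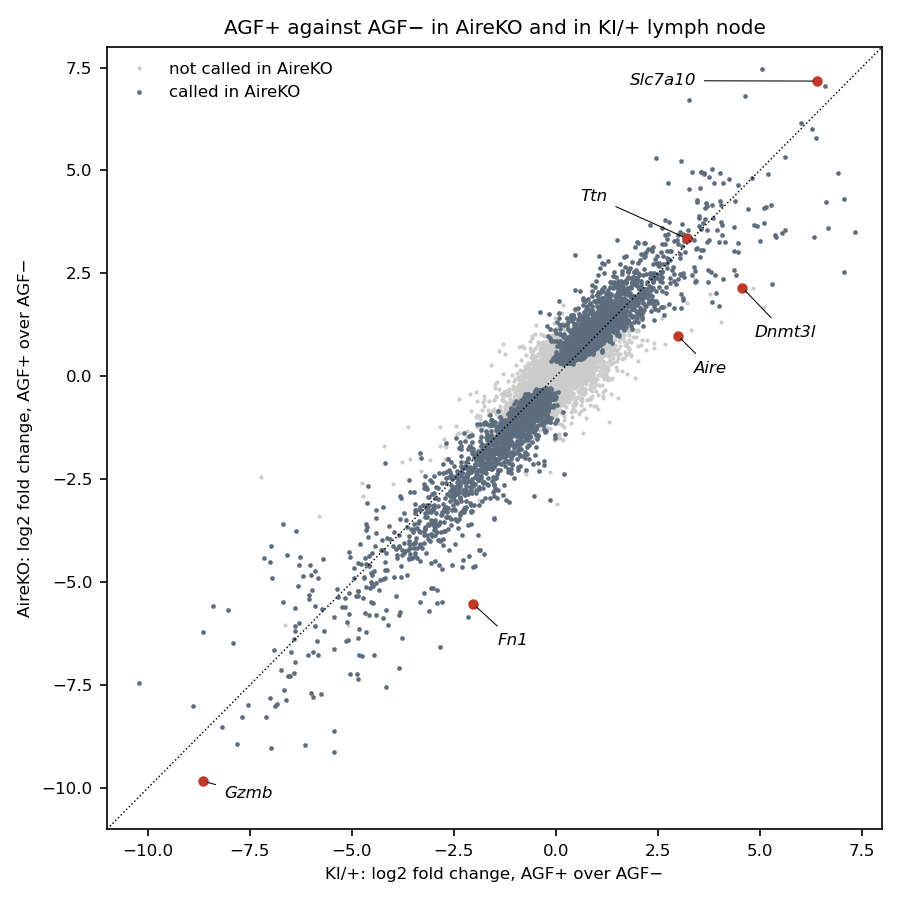
Log2 fold change of AGF+ over AGF− cells for each tested gene in AireKO mice (vertical axis) and KI/+ mice (horizontal axis), with a line of equal change and named genes labelled. Aire, at 0.99 in AireKO and 2.99 in KI/+ mice, and Dnmt3l, at 2.15 in AireKO and 4.58 in KI/+ mice, lie below that line. The KI/+ value of Dnmt3l rests on few counts in AGF− libraries.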

How the data were processed

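The authors deposited whole-number read counts per gene for 21 libraries, with no normalization. Per the labels' protocols, 1.0 ng of total RNA with an integrity number above 7 went into Ovation SoLo libraries that were read paired-end. Tools in the submitters' processing notes are STAR 2.7.3a, HTSeq 0.11.2, fastp 0.20.0, edgeR 3.38.1, Picard 2.21.1 and SAMtools 1.9, and the build is mm10. The sources used here give no annotation release, no strand setting and no rule for reads that map to several genes, so antisense and near-identical genes may share counts. Counted reads need not be independent molecules.

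All 12 lymph node libraries entered 1 model in edgeR 4.0.16 (R 4.3.3) with TMM scaling, its filter on low counts and a quasi-likelihood F test, and p was adjusted over all tested genes. Groups of 3 libraries thus share an estimate of spread. DESeq2 1.42.0, limma voom (limma 3.58.1), other scalings and filters, other sets of libraries, a replicate block and leaving out each library served as alternatives. Figures were drawn with matplotlib 3.10.9 under Python 3.11.15. GENCODE vM21 gave symbols, with 241 identifiers (0.0139% of counts) unmatched.

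The members and the 35 gene lists were chosen with earlier results of these data known. Genes were named by a rule: Aire and Dnmt3l, then the 10 largest rises and falls by fold and by CPM (called, 2-fold or more, average log2 CPM of 3 or more, non-overlapping replicates, without predicted genes, pseudogenes, ribosomal, mitochondrial and antigen receptor genes), and up to 5 called members of each list by smallest p. Some genes meeting it are not reported here.

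Same-numbered AGF+ and AGF− AireKO libraries deviated together from their group means (correlations 0.34, 0.28 and 0.36). So did same-numbered AGF− libraries of KI/+ and AireKO mice (0.39, 0.46 and 0.39). Same-numbered AGF+ KI/+ and AGF− AireKO libraries had correlations of 0.17, 0.0058 and 0.12. Those of AGF+ AireKO and AGF− KI/+ libraries were 0.18, 0.24 and 0.20. The shared deviation does not by itself show that same-numbered sorts came from the same mice, and this was not tested. The main fit did not use the replicate numbers, and the replicate block was run as an alternative. Counts were simulated for this comparison over 15511 genes. Of these, 71 of 100 genes changed 2-fold and 96 of 100 changed 4-fold were called, with 14 false calls. The test of the difference between genotypes called 25 of 100 and 80 of 100 of them, with 10 false calls. Changed genes were drawn from better-counted genes, with the spread of the same fit and no replicate structure. The shares need not hold for the data.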

Additional observations from a re-analysis of the deposited data

Results flagged for a closer look

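The change of Aire between the sorts differed between the genotypes by -1.998 ± 0.22 on the log2 scale (AireKO minus KI/+, SE, edgeR contrast, adjusted p = 0.0045). It was 0.99 in AireKO and 2.99 in KI/+ mice. It stands out because the difference between the genotypes was itself tested and passed. Aire is the targeted gene, and the cells were sorted on a reporter of it.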

How the results depend on the processing

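In none of the alternatives run was a called gene of the AireKO comparison called in the opposite direction. The 1812 higher and 2114 lower genes became 694 higher and 935 lower in a test against a 1.5-fold change and 1019 higher and 1314 lower at an adjusted p under 0.01, both stricter by construction. Without the libraries numbered 2 they were 1228 higher and 1442 lower. With each library left out in turn they ranged between 1338 and 1910 higher and between 1536 and 2216 lower. The replicate block gave 2312 higher and 2657 lower, and no named gene lost its call with it. The number of genes whose change differed between genotypes, 1, became 14 with no filter on low counts, 2 with DESeq2, 2 with the replicate block, 0 without the libraries numbered 2 and 1 to 2 with each library left out. The difference for Aire was -2.02 without the libraries numbered 2 (adjusted p = 0.67), and its adjusted p was at most 0.040 under the other alternatives. The difference in genes detected between the sorts was -178 at 1 count or more and reversed to 171 at 5 counts or more (two-sided exact permutation p = 0.3). Of 167 named genes 17 lost their call without the libraries numbered 2, and 3 gave no value there. The causes were not tested. Depth limits what can be said of genes near 0.534 to 0.641 CPM.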

Other observations

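Granulocyte and endothelial markers were few and split. Of 16 eosinophil, basophil and mast cell genes 4 were measured, and 2 rose and 2 fell. Prg2, the major basic protein of eosinophil granules, was at 10.7, 11.4 and 5.98 CPM in AGF+ and at 0.398, 1.28 and 1.62 CPM in AGF− cells (3.06 ± 0.47, adjusted p = 3.2e-04), and Siglecf, an eosinophil lectin, rose (1.61 ± 0.27). Ear2, an eosinophil ribonuclease (-3.86 ± 0.53), and Il5ra, the interleukin 5 receptor (-2.51 ± 0.68), fell. Of 12 neutrophil genes 1 was measured, Csf3r, the receptor of granulocyte colony-stimulating factor, which was at 13.5, 7.61 and 8.76 CPM in AGF+ and at 83.7, 54.0 and 84.1 CPM in AGF− cells (-2.87 ± 0.22, adjusted p = 1.4e-06). Of 8 measured stromal and endothelial genes 1 rose and 2 fell (37.5% called against 24.7% of all tested genes). Madcam1, an addressin of venules, rose (3.03 ± 0.74), and Pecam1, which leukocytes also express (-2.18 ± 0.13), and Cdh5, VE-cadherin (-4.29 ± 0.82), fell. Pecam1 was at 23.2, 25.2 and 26.7 CPM in AGF+ and at 122, 107 and 110 CPM in AGF− cells, with no overlap between the sorts. Ear2 had a log2 fold change of -3.24 without AGF− replicate 1. Il5ra did not pass without the libraries numbered 2, AGF+ replicate 1, AGF+ replicate 2 or AGF− replicate 3 (adjusted p of 0.055 to 0.097), and its log2 fold change was -1.87 without AGF+ replicate 1, -4.73 without AGF+ replicate 3 and -3.24 with limma voom. Madcam1 had a log2 fold change of 3.73 without AGF− replicate 3. Cdh5 had a log2 fold change of -3.13 without AGF− replicate 1 and -3.47 with limma voom.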
